A study of Mus musculus with 2 samples.

Results

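The 32 genes described here encode parts of the actin cytoskeleton and are linked to serum response factor (SRF); they were measured in cells labelled GT1-7 after exposure to gonadotropin-releasing hormone (GnRH). The genes were taken by name from a list, with no threshold on their measured values. Every non-control spot carrying one of the 32 names was used, which gave 59 probes on 68 spots. The arrays held 35019 gene names in all. Of these, 21219 were well above background, in the scanner software's own marking, in both groups, and 28 of the 32 cytoskeletal genes were among them. Cnn1 passed this mark on the vehicle array only, and Acta1, Actc1 and Myl9 passed it on neither array.

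The study compared mouse cells labelled as the line GT1-7, an immortalised hypothalamic line known for GnRH secretion, under 2 conditions of 30 min each. In the vehicle group (1 array) the cells were given DMSO, and in the GnRH group (1 array) they were given the peptide at 50 nM in DMEM. Total RNA was labelled with Cy3 and hybridised to Agilent mouse arrays of the 1-colour kind with probes of 60 nt. Genotype was not varied, and both groups are labelled as cultures of the same line. A line of this kind stands for the cells it was derived from only in part.

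Because each group is a lone array, no difference could be checked in replicates or tested, and precision is limited by the number of arrays. A further free-text label of both samples names another peptide, bradykinin, and the human lung line A549, whereas title, source and characteristics name GT1-7 with DMSO or GnRH, which were followed here. The labelled cell type was checked against markers. Of 7 GnRH neuron markers, Gnrh1, Six6 and Nhlh2 lacked the mark on both arrays, and Isl1, Six3, Otx2 and Dlx5 carried it on both; the last 2 were dim and had the lowest and highest log2 difference of that list, GnRH minus vehicle, at -0.59 ± 0.23 and 0.62 ± 0.37. Of 6 gonadotrope markers, Cga, Nr5a1, Pitx1, Gnrhr and Lhb carried it on both and Fshb on neither, with differences from -0.13 (Nr5a1) to 0.11 (Lhb, dim at 69.2 and 74.5). Signals on the vehicle array were 77907 for Cga, 46647 for Pitx1, 32332 for Nr5a1 and 14381 for Gnrhr. Of 8 neuronal genes, 7 carried it, from -0.07 (Elavl3) to 0.14 (Tubb3). Gnrh1 thus lacked the mark, while 4 of 7 GnRH neuron markers and 5 of 6 gonadotrope markers carried it. The markers did not bear out the label of a GnRH-secreting line. The cells are therefore called by their label only. The mark was on 55.2% of vehicle spots and 56.9% of GnRH spots, and 0 spots were saturated.

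SRF is a transcription factor that binds a short DNA element, the CArG box, and acts with partner proteins of different kinds. The ternary complex factors, such as Elk1, are phosphorylated through MAP kinases and are known for the fast induction of growth factor responsive genes such as Egr1 and Fos. The myocardin-related factors Mrtfa and Mrtfb bind monomeric actin; when actin polymerises they are released, enter the nucleus and with SRF switch on genes of the cytoskeleton, among them actins, calponins, tropomyosins, vinculin and the LIM-domain gene Fhl2. GnRH acts on a receptor coupled to Gq, upstream of calcium, protein kinase C and MAP kinase signals.

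The CArG box consists of CC, then 6 bases that are each A or T, then GG, and it reads as the same kind of element on both strands. It was sought in RefSeq promoter windows (build GRCm38.p6) that run from 250 bases before to 50 bases after a transcript's start. On the brightest probe and with the scaling used below, the 4 cytoskeletal genes with the highest differences, GnRH minus vehicle, each held a box. Their sequences are printed first. Those of Filip1l and Myl6 follow, which hold the same boxes as other members of the list but differed little on the brightest probe. Each stretch runs 5′ to 3′ on the gene's strand, with the box in capitals.
Fhl2, chr1:43163963-43164012, minus strand: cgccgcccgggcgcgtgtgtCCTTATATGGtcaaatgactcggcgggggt
Fhl2, chr1:43196828-43196877, minus strand, window of another transcript start: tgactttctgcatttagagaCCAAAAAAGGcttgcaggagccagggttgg
Cnn2, chr10:79988524-79988573, plus strand: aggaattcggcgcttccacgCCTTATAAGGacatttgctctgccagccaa
Vcl, chr14:20929151-20929200, plus strand: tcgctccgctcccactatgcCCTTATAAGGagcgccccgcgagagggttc
Actg1, chr11:120348556-120348605, minus strand: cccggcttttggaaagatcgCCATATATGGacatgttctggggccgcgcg
Filip1l, chr16:57549160-57549209, plus strand: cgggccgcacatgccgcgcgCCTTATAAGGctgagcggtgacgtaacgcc
Myl6, chr10:128493030-128493079, minus strand: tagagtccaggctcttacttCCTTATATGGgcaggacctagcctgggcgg
The box CCTTATAAGG thus stood in the windows of Cnn2, Vcl and Filip1l, and the box CCTTATATGG in those of Fhl2 and Myl6. The first base of the box lay 31 bases before the start in one Fhl2 window and 96 bases before it in the other, 56 in Cnn2, 227 in Vcl, 90 in Actg1, 62 in Filip1l and 50 in Myl6.

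After 30 min of GnRH, 1 of the 28 measured cytoskeletal genes, the LIM-domain gene Fhl2, was at least 2-fold higher, and 0 were at least 2-fold lower. Over all 21219 measured genes, the share 2-fold or more higher was 0.311% and the share 2-fold or more lower was 0.132%. At 1.5-fold the counts among the cytoskeletal genes were the same, 1 higher and 0 lower, against 1.19% and 0.881% of all genes. The other 27 genes lay within 1.5-fold of the vehicle array, as 97.9% of all measured genes did. Differences here and below are log2 values, GnRH minus vehicle, of the processed signal after each array was set to its 75th percentile, and each gene is represented by its brightest probe that was well above background on both arrays. Signals are given after scaling both arrays to a common 75th percentile. A probe's signal depends on its own hybridisation, so signals are compared between the arrays and not between genes.

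The median difference of the 28 genes was 0.02, beside -0.01 for all genes. Of the 28 genes, 18 (64.3%) were above 0 and 10 below it, where 47.5% of all genes were above 0. Their median difference in size, 0.049, was below the 0.072 of all genes, and 18 of 28 (64.3%) lay within 0.1 of 0, against 61.9% of all genes. These sizes are not like for like, because scatter falls with brightness. Of the 28 genes, 13 had a mean signal above 10000, as did 3180 of the 21219 measured genes. The error given with each difference is the scanner software's error combined over both arrays, about 0.20 for most probes and mostly set by a multiplicative term of 0.1. Of the 28 differences, 23 lay within this error of 0, and those of Fhl2, Cnn2, Vcl, Actg1 and Actg2 lay outside it. That is 17.9% of them, beside 14.1% of all genes. Past 2 times the error, a limit added after the data were seen, Fhl2 was the 1 higher gene and there were 0 lower ones, beside 1.54% and 1.15% of all genes.

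**Figure D1:**
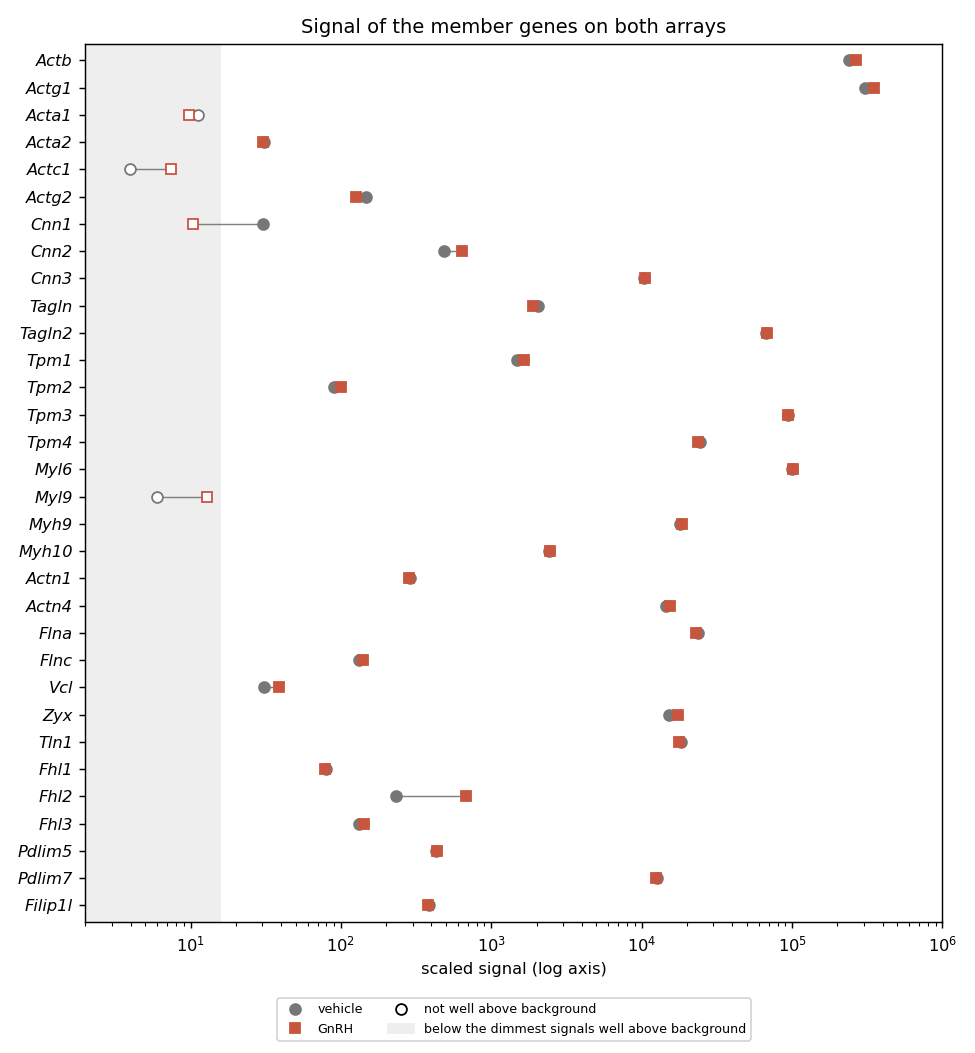
Scaled signal of each of the 32 genes on the vehicle array (grey circles) and the GnRH array (red squares), on a log axis, with open symbols for signals not well above background; for genes with several probes the brightest measured one is drawn. The symbols of most genes lie on top of each other, while Fhl2 moves from 232 to 682 and Cnn1 from 30.4 into the grey band.

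Fhl2 encodes a protein made of LIM domains that sits at focal adhesions and in the nucleus. It was measured by a lone probe from position 1428 of its transcript, at chr1:43179994-43180053 on the minus strand (build mm9). Its scaled signal went from 232 (vehicle) to 682 (GnRH), a 2.95-fold difference, or 1.56 ± 0.21 on the log2 scale. Among the 21219 measured genes it stood at rank 42 from the top. Its paralogs lay near 0. Fhl1, at 79.6 and 78.6, differed by -0.02 ± 0.22. Fhl3, at 132 and 142 on its brighter probe, differed by 0.10 ± 0.21, and by 0.13 ± 0.25 on its dimmer probe.

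The remaining genes of this group encode scaffolds of the actin filament. Pdlim5 and Pdlim7, which carry PDZ and LIM domains and bind α-actinin or tropomyosin, differed by 0.02 ± 0.20 and -0.02 ± 0.20. Their other measured probes lay at -0.10 for Pdlim5 and at -0.03 and 0.11 for Pdlim7, and the remaining Pdlim5 probe was well above background on the GnRH array only, at 14.7 and 19.7. Filip1l, a filamin A interacting protein-like gene, went from 388 to 379 on its brighter probe (-0.03 ± 0.21) and from 201 to 236 on its other probe (0.23 ± 0.21). The median of the 6 LIM and filament-associated genes was 0.00, so Fhl2 stood alone among them.

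Calponins and transgelins are small actin-binding proteins that share a calponin-homology domain and stabilise filaments, and Cnn1 and Tagln are textbook markers of smooth muscle. Cnn2, the non-muscle calponin 2, had the next largest difference after Fhl2, and its probes disagreed. On the brighter probe (mm9 chr10:79457370-79457429, plus strand) it went from 485 to 639, a 1.32-fold difference or 0.40 ± 0.20. On the other probe (mm9 chr10:79457785-79457844, plus strand), which lies farther along the same transcript, it went from 228 to 654, a 2.87-fold difference or 1.52 ± 0.21. Both probes were higher on the GnRH array, and the size of the Cnn2 difference depends on which of them is read.

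Cnn1 was at 30.4 on the vehicle array and, at 10.3, not well above background on the GnRH array. This gives a lower bound: at least 2.09-fold lower on the GnRH array, taken against the dimmest signal that still carried the mark there. Of 324 genes that were above background on the vehicle array only, 21.3% had a bound of 2-fold or more, so such a bound was common among dim genes of this kind. The share was 7.14% of 938 genes above background on the GnRH array only.

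The other calponin and transgelin genes differed little. Cnn3, an acidic calponin of non-muscle cells, differed by 0.02 ± 0.20 on its brightest probe (10324 and 10482) and by 0.05 ± 0.20 on the next one. Its remaining probe, which carries the accession of a cDNA mapped to the opposite strand and was dim, went from 26.0 to 37.8 (0.54 ± 0.32). Tagln went from 2038 to 1894 (-0.11 ± 0.20), and Tagln2 differed by 0.02 ± 0.20 and -0.07 ± 0.20 on its 2 probes. The median of the 4 measured genes of this group was 0.02.

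Actins form the filament itself: Actb and Actg1 encode the cytoplasmic β- and γ-actin, and Acta1, Acta2, Actc1 and Actg2 the skeletal, vascular, cardiac and enteric muscle forms. Actg1 was higher on the GnRH array on all of its 5 probes. The probes fell into 2 sets by position. Those that begin at positions 1841 and 1723 of the transcript, in its 3′ end, went from 192958 to 227700 (0.24 ± 0.20) and from 303256 to 352778 (0.22 ± 0.20). The 3 probes in the coding region overlap each other and are shown because they gave the larger differences; capitals mark positions at which overlapping probes carry different bases. Coordinates are of build mm9, minus strand.
Actg1 from position 624, chr11:120208409-120208468: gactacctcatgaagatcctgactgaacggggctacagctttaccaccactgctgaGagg
Actg1 from position 662, chr11:120208371-120208430: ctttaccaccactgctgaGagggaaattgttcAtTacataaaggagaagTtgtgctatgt
Actg1 from position 672, chr11:120208361-120208420: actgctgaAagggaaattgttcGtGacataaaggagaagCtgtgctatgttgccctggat
The probe from position 624 went from 93273 to 128758 (0.47 ± 0.20). That from position 662 went from 36104 to 57292 (0.67 ± 0.20), a 1.59-fold difference. That from position 672 went from 45392 to 68647 (0.60 ± 0.20), a 1.51-fold difference. The last 2 overlap over 50 bases, of which 4 differ, and gave differences within their error of each other. Although both are labelled with the same Actg1 transcript, they cannot both match it at every base. Coding sequences of actins are alike, so signal from other actin transcripts on these 3 probes cannot be separated from that of Actg1 with these files.

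Actb, measured on a lone probe, went from 239085 to 266866 (0.16 ± 0.20), a difference within its error and in the direction of Actg1. Acta2 was printed 10 times on each array. Its spots ranged from 18.9 to 44.2 with a median of 34.2 on the vehicle array and from 19.2 to 45.9 with a median of 30.2 on the GnRH array. The ranges overlapped almost fully, and the mean difference was -0.02 ± 0.10, with an SD of 0.27 over spots of the same RNA; 6 of 10 spots were higher on the GnRH array. Actg2 was lower, from 148 to 127 (-0.22 ± 0.21), the lowest value of all 28 measured genes. Acta1, at 11.2 and 9.79, and Actc1, at 3.93 and 7.42, were not well above background, so no fold is given.

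The muscle forms can be read beside other muscle genes. Of 12 smooth and striated muscle markers, 6 were measured on both arrays, with differences from -0.31 (Ckm) to 0.48 (Tnnt2) and a median of -0.04. These were Smtn (2481 and 2364), Synpo2 (714 and 709), Myh7 (99.5 and 92.8) and the dim Ckm, Tnnt2 and Tnni1. Myh11, Lmod1, Des, Myog and Mb lacked the mark on both arrays, and Myh6 carried it on the vehicle array only. Of 11 fibroblast and endothelial markers, 4 were measured, from -0.11 (Col1a2) to 0.23 (Pecam1). In neither list was a gene 2-fold different. In RNA from a whole culture, a change in the number of cells of a type and a change in RNA per cell cannot be told apart.

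**Figure D2:**
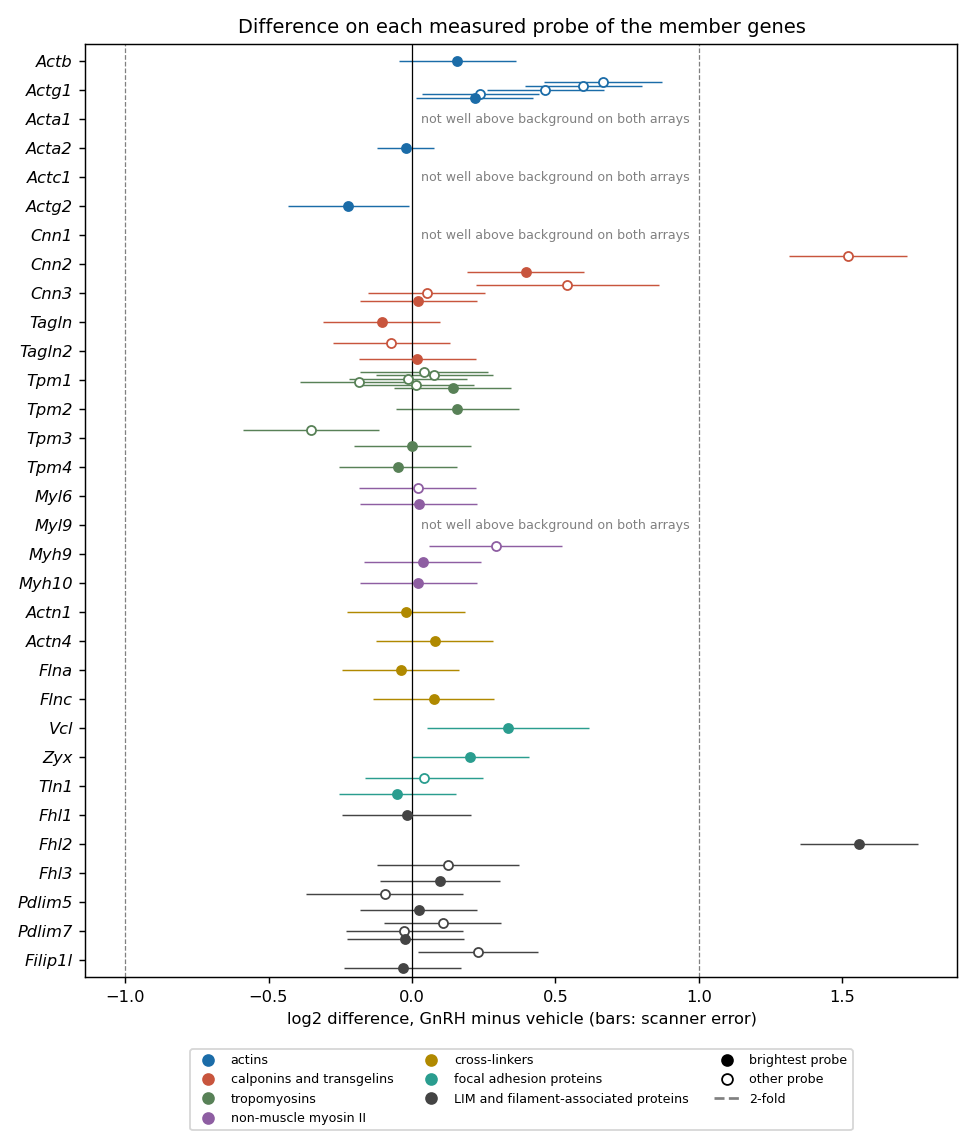
Log2 difference, GnRH minus vehicle, of each of the 50 probes of the 32 genes that were well above background on both arrays, with bars of 1 scanner error, coloured by role; filled points are the brightest probe of a gene, open points its other probes, and dashed lines mark 2-fold. The lone Fhl2 probe and the dimmer Cnn2 probe lie past the line at 1.56 and 1.52, and the 5 Actg1 probes spread from 0.22 to 0.67.

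Tropomyosins are coiled-coil proteins that run along the filament and set which other proteins reach it, and their genes give many isoforms through alternative promoters and splicing. The 4 genes had a median difference of 0.07. Tpm1 was covered by 6 probes to different isoforms, which ranged from -0.18 ± 0.20 to 0.14 ± 0.20, the latter on its brightest probe (1491 and 1646). Tpm3 differed by 0.00 ± 0.20 on its brightest probe (94411 and 94526). A dimmer probe to another isoform went from 65.2 to 51.1 (-0.35 ± 0.24), and another was well above background on the vehicle array only (25.0 and 16.0). Tpm2 went from 89.8 to 100.2 (0.16 ± 0.21), and Tpm4 differed by -0.05 ± 0.20.

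Non-muscle myosin II is the motor that slides actin filaments. Its heavy chain genes Myh9 and Myh10 differed by 0.04 ± 0.20 and 0.02 ± 0.20. A second, dim probe of Myh9, placed on a transcript of another accession, went from 60.0 to 73.5 (0.29 ± 0.23). The essential light chain Myl6 differed by 0.02 ± 0.20 on each of its 2 probes. Signals of the regulatory light chain gene Myl9, a smooth muscle form, were 6.0 and 13 and lacked the mark on both arrays. On the brightest probe of each, the 3 measured myosin genes lay between 0.02 and 0.04, within their errors of 0.20. The second Myh9 probe, at 0.29, lay outside that range.

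Cross-linkers tie filaments into bundles and networks. The α-actinin genes Actn1 and Actn4 differed by -0.02 ± 0.21 and 0.08 ± 0.20, and the filamin genes Flna and Flnc by -0.04 ± 0.20 and 0.08 ± 0.21. All 4 lay within their errors, with a median of 0.03.

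Focal adhesion proteins join the filaments to integrins. The 3 genes of this group had the highest group median, 0.20. Vcl, which encodes vinculin, went from 30.6 to 38.6 (0.34 ± 0.28) on the lone measured probe, and another probe was not well above background. Zyx, which encodes zyxin, went from 15217 to 17520 (0.20 ± 0.20). Tln1, which encodes the integrin activator talin, went from 18378 to 17748 (-0.05 ± 0.20) and by 0.04 ± 0.21 on its other probe. Vcl and Zyx were higher and Tln1 was not, and the values of Zyx and Tln1 were within their errors.

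Since scatter falls with brightness, each gene was also set beside genes of like mean signal. The central 95% of genes ran from -0.63 to 0.64 for signals under 100, from -0.31 to 0.33 between 100 and 1000, from -0.18 to 0.20 between 1000 and 10000 and from -0.12 to 0.18 above 10000. Fhl2 and Cnn2 lay above the range of the second class, Actg1 and Zyx lay above that of the brightest class, and 0 of the 28 lay below their range. Vcl, with a larger difference than Actg1, lay inside the range of the dimmest class. Probes printed several times gave the spread of spots of the same RNA within these arrays: the median SD of a spot's difference was 0.23 under 100, 0.077 between 100 and 1000, 0.041 between 1000 and 10000 and 0.035 above 10000. These SDs hold no variation between cultures or labellings.

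**Figure D3:**
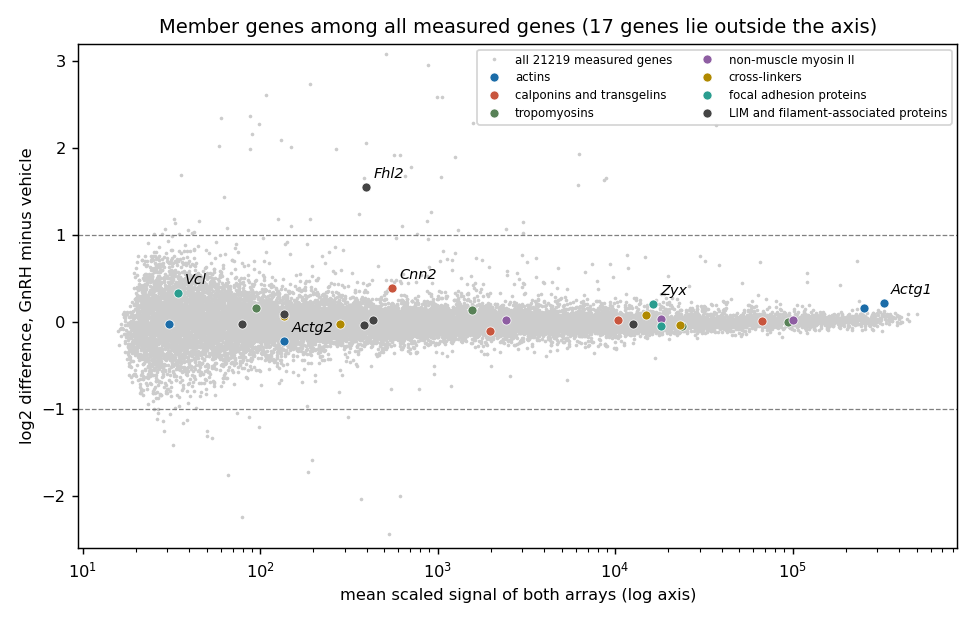
Log2 difference against mean scaled signal (log axis) of 21219 measured genes in grey, with the 28 measured cytoskeletal genes coloured by role; dashed lines mark 2-fold, and 17 genes lie outside the axis. Fhl2 stands apart at 1.56 and Cnn2 at 0.40, Actg1 and Zyx lie at the upper edge of the bright genes, and Vcl lies within the wide scatter of dim genes.

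Where a gene had several measured probes, they can be checked against each other. In 5 of 13 such cytoskeletal genes (38.5%), Actg1, Cnn2, Cnn3, Tpm1 and Tpm3, the widest gap between probes exceeded its combined scanner error, beside 18.9% of 5913 genes over the whole array. The gap was 1.12 in Cnn2, 0.52 in Cnn3, 0.45 in Actg1, 0.35 in Tpm3 and 0.33 in Tpm1. The widest gap can grow with the number of probes, 6 in Tpm1 and 5 in Actg1, and the genes were not matched for it. That of Cnn3 rests on its dim probe mapped to the opposite strand. The shares are therefore not like for like. In Cnn2 and Actg1 all probes lay above 0, whereas in Tpm1 they lay on both sides of it. In 3 areas of the arrays, spots next to each other differed in step although their genes are unrelated; these areas held 1.03% of the spots. Of the spots of the 32 genes, 0 lay in these areas, and the median difference around any of their probes was at most 0.136 in size.

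Of the 32 genes, 29 had an entry in the promoter table; Actb, Actg2 and Tagln had none. A CArG box stood in the windows of 10 of these 29 genes (34.5%), namely Acta1, Actc1, Actg1, Cnn2, Fhl1, Fhl2, Filip1l, Myl6, Myl9 and Vcl, and in 1.81% of all 27025 genes in the table. By window, 11 of 36 (30.6%) held one, beside 1.63% of all 32851 windows of the same length. With 1 base off allowed, 13 of the 29 genes held a box, beside 11.3% of all genes. The list is named for SRF, so its share of CArG boxes is a description of the list.

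The 4 highest of the measured genes, Fhl2, Cnn2, Vcl and Actg1, all held a box in the promoter window. This run of 4 rests on small gaps and on the processing. Zyx, with no box, was at 0.203 beside 0.218 for Actg1, each with an error of 0.20. Zyx stood above Actg1 with quantile normalization (0.201 and 0.165) and above Vcl with no background correction (0.174 and 0.153). With the dimmest probe, Cnn3 (0.542), also with no box, stood above Vcl (0.336). Nor did a box go with a difference everywhere. Filip1l, with the box of Cnn2 and Vcl, was at -0.03 ± 0.21 on its brighter probe and at 0.23 ± 0.21 on its other probe. Which of these probes reads transcripts from the start beside the box was not tested. Myl6, with the box of Fhl2, was at 0.02 ± 0.20. Fhl1 was at -0.02 ± 0.22, and Acta1, Actc1 and Myl9 hold a box but were not measured. The median was 0.22 over the 7 measured genes with a box and 0.02 over the 18 without; no test was made. A match is a run of letters and does not show that SRF binds there.

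**Figure D4:**
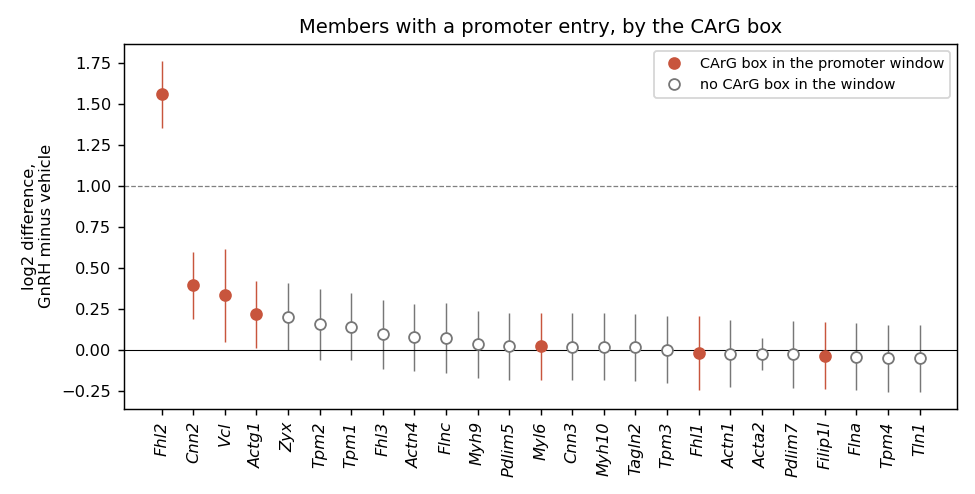
Log2 difference, GnRH minus vehicle, of the 25 measured cytoskeletal genes with a promoter entry, in falling order, with bars of 1 scanner error; red points have a CArG box in the promoter window, open points have none, and the dashed line marks 2-fold. The first 4 genes are red, with the open point of Zyx at 0.203 close below Actg1 at 0.218. The other 3 red points, Myl6, Fhl1 and Filip1l, lie between -0.03 and 0.02.

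Over all measured genes with a promoter entry, 200 held a box and 11369 did not. At least 2-fold higher were 3 of the former (1.5%) and 29 of the latter (0.255%); at least 1.5-fold higher were 8 (4%) and 100 (0.880%). The 3 genes were Dusp5 (2.74 ± 0.22), a MAP kinase phosphatase, Fhl2 itself and Srf (1.07 ± 0.20). The others with a box past 1.5-fold were H2al1n (0.73 ± 0.33), Trpc6 (0.71 ± 0.37), H2al1e (0.70 ± 0.21), H2al1m (0.62 ± 0.26) and Stbd1 (0.59 ± 0.20). H2al1n, H2al1e and H2al1m are of the same gene family, so the 8 genes are not all separate cases. The medians, 0.00 with a box and -0.01 without, were alike, so a box in this window did not go with a shift of the genes as a whole. Of the inducible SRF targets listed below, Dusp5 and Srf were among the 8 genes. Egr1 (8.47), Fos (5.98), Fosb (6.36), Junb (3.31), Ier2 (3.09) and Nr4a1 (2.27) were not. The 200 and 11369 genes are only part of the 21219 measured genes, and genes without a promoter entry stand in neither group. Whether Egr1 and the others named with it lack a box or lack an entry is not given here. How well the split by this window separates SRF targets from other genes was therefore not tested.

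SRF and its cofactors were measured on the same arrays. Srf itself went from 1689 to 3539 (1.07 ± 0.20) and was the 1 gene of this list at least 2-fold higher. The other measured cofactors were near 0: Mrtfa at -0.04 ± 0.20, Mrtfb at -0.10 ± 0.20, Elk1 at -0.02 ± 0.20, Elk4 at 0.11 ± 0.21 and Elk3, the lowest, at -0.14 ± 0.20. Myocd, the cofactor of heart and smooth muscle, lacked the mark on both arrays. The median of the 6 measured genes was -0.03.

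The inducible SRF targets outside the cytoskeleton, mostly immediate-early genes, stood far from the cytoskeletal genes. This list was drawn up with their response known, so its count is no independent evidence. Of 17 genes, 12 were measured on both arrays and 11 were at least 2-fold higher, with a median difference of 3.03. They ran from Srf at 1.07 through Nr4a1 (2.27), Ccn1 (2.59), Dusp5 (2.74), Arc (2.96), Ier2 (3.09), Junb (3.31), Npas4 (5.80), Fos (5.98) and Fosb (6.36) to Egr1 (8.47). Mcl1, which encodes a survival factor, was at -0.16 ± 0.20, and Egr2, which lacked the mark on the vehicle array, was higher by at least 143-fold. Egr3, Ccn2, Ankrd1 and Tgfb1i1 were measured on neither array; Ccn1, which encodes a matricellular protein, is itself known as a target of the actin-regulated cofactors.

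Of 28 genes for filament assembly and capping, such as the Arp2/3 subunits and the capping proteins, all were measured and all lay within 1.5-fold, from Gsn, which encodes the severing protein gelsolin, at -0.20 ± 0.20 to Wasl, an activator of the Arp2/3 complex, at 0.17 ± 0.20, with a median of 0.02. Of 18 further focal adhesion genes, 16 were measured, with a median of -0.03; the lowest was the integrin gene Itgav (-0.11 ± 0.21) and the highest was Src, a tyrosine kinase, which was dim (34.4 and 49.3, 0.52 ± 0.27). Both lists had 0 genes at least 2-fold higher, where the cytoskeletal list had Fhl2 and the share of all genes was 0.311%. In lists of this size, a count of 0 does not set them apart from the cytoskeletal list.

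**Figure D5:**
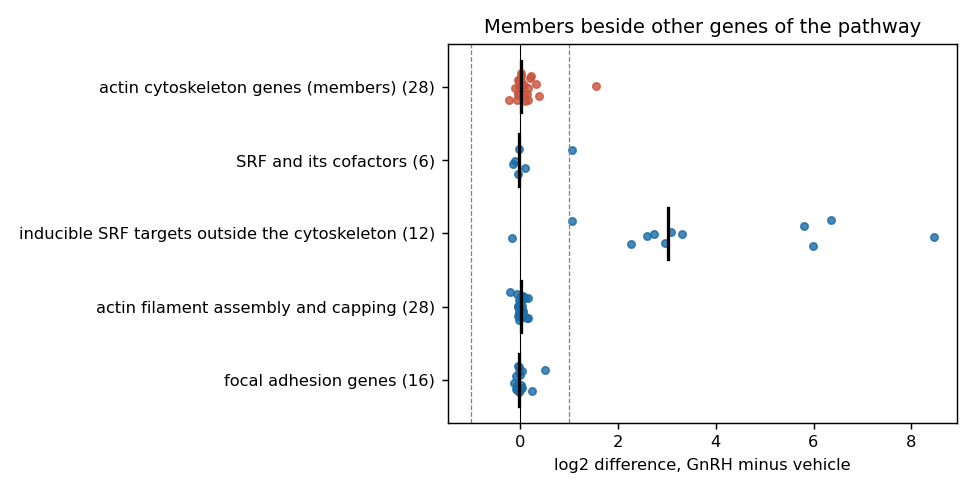
Log2 difference, GnRH minus vehicle, of each measured gene in 5 lists, with the number of measured genes in brackets and a black bar at each median; dashed lines mark 2-fold, and Srf stands in 2 of the lists. The medians of the cytoskeletal genes and of 3 of the other lists lie between -0.03 and 0.02, while that of the inducible targets is 3.03.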

How the data were processed

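Per the file headers, the deposited scanner files hold the intensity of each spot, background-subtracted and detrended within each array by Feature Extraction 10.7.1.1, with an error per spot, whereas 9.5.1.1 is the version in the submitters' processing notes. The authors' deposited value table also holds intensity values, with column medians of 28.4 and 28.4; its differences correlated with those of the scanner files at r = 0.998 over 29665 probes, and how it was normalized is not given in the sources used here.

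Left out were control spots and outlier spots (121 and 94). Then log2 processed signals of a probe's spots were averaged, and each array's 75th percentile over 55681 probes (578 for vehicle, 541 for GnRH) was subtracted. Probes needed the software's mark of being well above background on 50% of kept spots. Names came from RefSeq accessions for 27235 probes, otherwise from the files. No test was made; counts are set beside all measured genes.

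The genes, lists and thresholds were chosen with earlier results of these data known. Named in full were genes at least 1.5-fold different on any measured probe, those with disagreeing probes and the actins, and of each list the genes past 2-fold, the lowest and the highest; Mrtfa, Mrtfb, Elk1, Elk4 and the marker genes were named beyond this rule, and 1 list is not reported here. Steps were tested on simulated data. Tools were Python 3.11.15, numpy 2.4.6, pandas 2.3.3, scipy 1.17.1, statsmodels 0.14.6, matplotlib 3.10.9, R 4.3.3 and limma 3.58.1.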

Additional observations from a re-analysis of the deposited data

How the results depend on the processing

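Under 13 alternatives of scaling, background correction, source of values, filters and probe rule, Fhl2 stayed between 1.33 and 1.57 and at least 2-fold higher. The median of the cytoskeletal genes ranged from -0.01 (median scaling, where that of all genes was -0.03) to 0.06 (dimmest probe). Of 360 values of 28 genes, 8 moved by more than the scanner error or across 2-fold. In 29 values, of 12 genes with reported differences of at most 0.0503 in size, the sign turned; 2 of these, Tpm3 and Filip1l with the dimmest probe, also moved past the error. With the mean over probes, Actg1 was at 0.44 and Cnn2 at 0.96; with the dimmest probe, they were at 0.67 and 1.52, Cnn3 at 0.54, Tpm3 at -0.35, Myh9 at 0.29 and Filip1l at 0.23. Counts at least 2-fold higher went from 1 to 2 with the dimmest probe (Cnn2; 0.306% of all genes) and to 2 with no filter on dim probes (Myl9; 3.60% of all genes). At 1.5-fold higher they went to 2 with the mean over probes (Cnn2; 1.15% of all genes), to 3 with the dimmest probe (Actg1, Cnn2; 1.49%) and to 3 with no filter (Actc1, Myl9; 7.56%). Past 2 times the scanner error, counts went to 3 with the mean over probes (1.84% of all genes) and to 3 with the dimmest probe (1.86%), both by Actg1 and Cnn2. With no filter, Cnn1 was the 1 gene at least 2-fold lower, at least 1.5-fold lower and lower past 2 times its error, beside 2.17%, 4.76% and 1.01% of all genes; with no filter, the counts of 1 to 3 of 32 at both folds are thus near the share of all genes. Acta2, Fhl1, Tpm2 and Vcl gave no value under the stricter filter, a signal of at least 100. No paired analysis was possible because each group has 1 array. Dim probes limit what can be read of Acta1, Actc1, Cnn1 and Myl9.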
